A study of Homo sapiens with 18 samples.

Results

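The 36 genes described here carry out the unfolded protein response, the degradation of proteins from the endoplasmic reticulum (ER) and the integrated stress response. They were taken by symbol from a list of names. No cut on a measured value was applied, but the list was chosen with earlier results of these data known. Of the 36, 35 were in the count table of 20833 gene identifiers, and all 35 were among the 12262 genes that passed the filter on low counts. The counts of MANF, a secreted ER stress protein, were not analysed here. By role, the 35 comprised 13 ER folding genes, 8 ER degradation genes, 5 stress sensors and transcription factors, and 9 genes of the integrated stress response.

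Messenger RNA was sequenced from MEG-01, a human megakaryoblastic leukemia line, on day 3 after lentiviral transduction. Cells with the genotype label WT, called unedited here, and cells labelled ETV6-KO, called knockout, each received an empty vector (EV), wild-type ETV6 or ETV6 with the R369W substitution. Each of the 6 groups held 3 libraries, which carry the numbers 2, 3 and 4 for unedited cells but 1, 2 and 4 for knockout cells. ETV6 belongs to the ETS transcription factors and acts mainly as a repressor. All cells carry a lentivirus. The sources used here do not give the promoter of the vectors, whether the knockout is a single clone, or what the replicate numbers stand for.

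When unfolded proteins build up in the ER, the sensors IRE1 (gene ERN1), ATF6 and PERK (gene EIF2AK3) are released from the chaperone BiP (gene HSPA5). IRE1 splices the messenger of XBP1, and spliced XBP1 and cleaved ATF6 switch on chaperones and the machinery that sends misfolded proteins to the proteasome. PERK phosphorylates the initiation factor eIF2, which slows translation but favours that of ATF4. Because kinases that sense amino acid shortage, heme shortage or viral RNA phosphorylate eIF2 as well, the ATF4 targets are known as the integrated stress response. Gene counts measure the total XBP1 messenger, not its splicing.

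Gene reads ran from 12577816 to 18927506 per library. The share of unaligned reads was 0.527% to 0.809% in EV libraries (6) and 0.279% to 0.349% in all others. This measure moved with EV in both genotypes, and its part in the differences from EV was not tested. ETV6 counts were 66, 77.8 and 145 CPM (counts scaled to library size by TMM) in unedited EV cells, 39.1 to 117 in knockout EV cells, and 1350 to 2830 in the 12 libraries with an ETV6 or R369W vector. These counts show the vectors but not the edit. Of 12 megakaryocytic markers, 8 to 10 had at least 10 reads in each group, and the list summed to 1050 to 2150 CPM. A list of 13 erythroid markers summed to 1590 to 3470 CPM in unedited and 388 to 1530 in knockout libraries. Among the latter, EV replicate 2, ETV6 replicate 2 and R369W replicate 1 stood apart, at 1340, 1530 and 1260 CPM against 388 to 724 in the other 6, so results in knockout cells were also taken without these 3 libraries, a choice made after the data were seen. A list of 10 myeloid markers summed to 194 to 238 CPM in the 6 libraries given wild-type ETV6 and to 425 to 734 in the other 12. A list of 7 B-lymphoid markers summed to 35.8 to 54.7 CPM with ETV6 and 136 to 332 with EV in unedited cells, and to 102 to 139 with ETV6 and 615 to 679 with EV in knockout cells. Of 8 plasma cell markers, the cell type best known for a strong unfolded protein response, 6 were in the table, and their sum stayed at 0.616 to 5.14 CPM.

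Same-numbered libraries resembled each other. Across genes, the deviations of same-numbered unedited libraries from their group means correlated at 0.727 to 0.888 between vectors, and those of knockout EV and ETV6 libraries at 0.764 to 0.848. Same-numbered knockout R369W libraries correlated with them at -0.571 to -0.154, while knockout R369W replicates 1, 2 and 4 correlated at 0.888, 0.773 and 0.764 with EV replicates 2, 4 and 1. The numbers of that group therefore do not pair its libraries, and no library was relabelled. Library names in the labels run consecutively in 4 of 6 groups but not in knockout ETV6 and R369W, so results were also taken without the 2 libraries that break the order (knockout ETV6 replicate 1 and R369W replicate 4). A fit that blocks on the replicate number is given beside the results within unedited cells and for wild-type ETV6 in knockout cells.

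Promoters of ER stress genes are known for elements bound by ATF6 and XBP1, and those of integrated stress response genes for a composite element bound by ATF4. The 250 bases before each transcription start (RefSeq, GRCh38.p14) were searched on both strands in the 33 of 36 members with an entry, MANF included and all but PDIA3, DERL1 and DERL3. The ER stress response element ERSE, CCAAT and CCACG separated by 9 bases, was in 6 of 33 members (CALR, CANX, HSP90B1, HSPA5, PDIA6 and XBP1) and in 0.0916% of 27305 genes. ERSE-II, ATTGG and CCACG separated by 1 base, was in HERPUD1, HYOU1 and SDF2L1 and in 0.0659% of all genes. The core of the XBP1 element, TGACGTGG, was in HYOU1, where it overlaps an ERSE-II match, and in 0.78% of all genes. The ATF4 composite, TGATGNAA, was in ASNS, CHAC1 and HERPUD1 and in 3.89% of all genes. The ETS motif CCGGAAGT was in DDIT3, DNAJB9, EDEM2 and SYVN1 (4 of 33) and in 4.13% of all genes. The windows of SEL1L, ERN1, EIF2AK3, PSAT1 and PHGDH held none of these 5 strings of letters. The stretches that hold a match are shown for 7 members that carry an ER stress element and for the 2 ATF4 target genes ASNS and CHAC1, on the strand of the gene, with each match in capitals (reverse matches read as the complement). The stretches of ASNS and CHAC1 lie before the RefSeq start but within an exon of a GENCODE transcript of the same gene.
HSPA5, chr9:125241376-125241424, minus strand: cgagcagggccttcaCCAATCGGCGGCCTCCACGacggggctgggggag
CALR, chr19:12938369-12938417, plus strand: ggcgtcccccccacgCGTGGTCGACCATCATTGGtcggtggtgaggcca
PDIA6, chr2:10812838-10812886, minus strand: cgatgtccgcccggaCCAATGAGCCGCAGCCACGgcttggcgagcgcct
XBP1, chr22:28800588-28800636, minus strand: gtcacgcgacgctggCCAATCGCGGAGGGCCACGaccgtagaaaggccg
SDF2L1, chr22:21642099-21642139, plus strand: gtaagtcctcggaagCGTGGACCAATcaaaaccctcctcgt
HYOU1, chr11:119057259-119057408, minus strand: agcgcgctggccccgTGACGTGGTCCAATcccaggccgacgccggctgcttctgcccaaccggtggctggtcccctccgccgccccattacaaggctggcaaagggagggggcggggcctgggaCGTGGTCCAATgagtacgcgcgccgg
HERPUD1, chr16:56931951-56932050, plus strand: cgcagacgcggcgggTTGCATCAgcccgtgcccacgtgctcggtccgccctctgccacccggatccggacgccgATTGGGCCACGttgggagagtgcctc
ASNS, chr7:97872458-97872487, minus strand: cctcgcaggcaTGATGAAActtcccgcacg
CHAC1, chr15:40953251-40953280, plus strand: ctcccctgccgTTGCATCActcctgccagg

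Per kilobase of annotated exon, the levels in unedited EV cells spanned from 323 CPM per kb for CALR, the calcium-binding lectin chaperone calreticulin, to 1.32 for DERL3, a channel protein of ER degradation. ATF4 was at 220.5, CANX (calnexin, the membrane-bound partner of calreticulin) at 172, PSAT1 at 114 and HSPA5 at 86.2 CPM per kb. The sensors lay lower, with ATF6 at 13.2, ERN1 at 5.21 and EIF2AK3 at 2.09. DDIT3, which encodes the stress factor CHOP, was at 6.72. The annotated exon length can exceed the transcript in use, so this order is approximate.

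**Figure D1:**
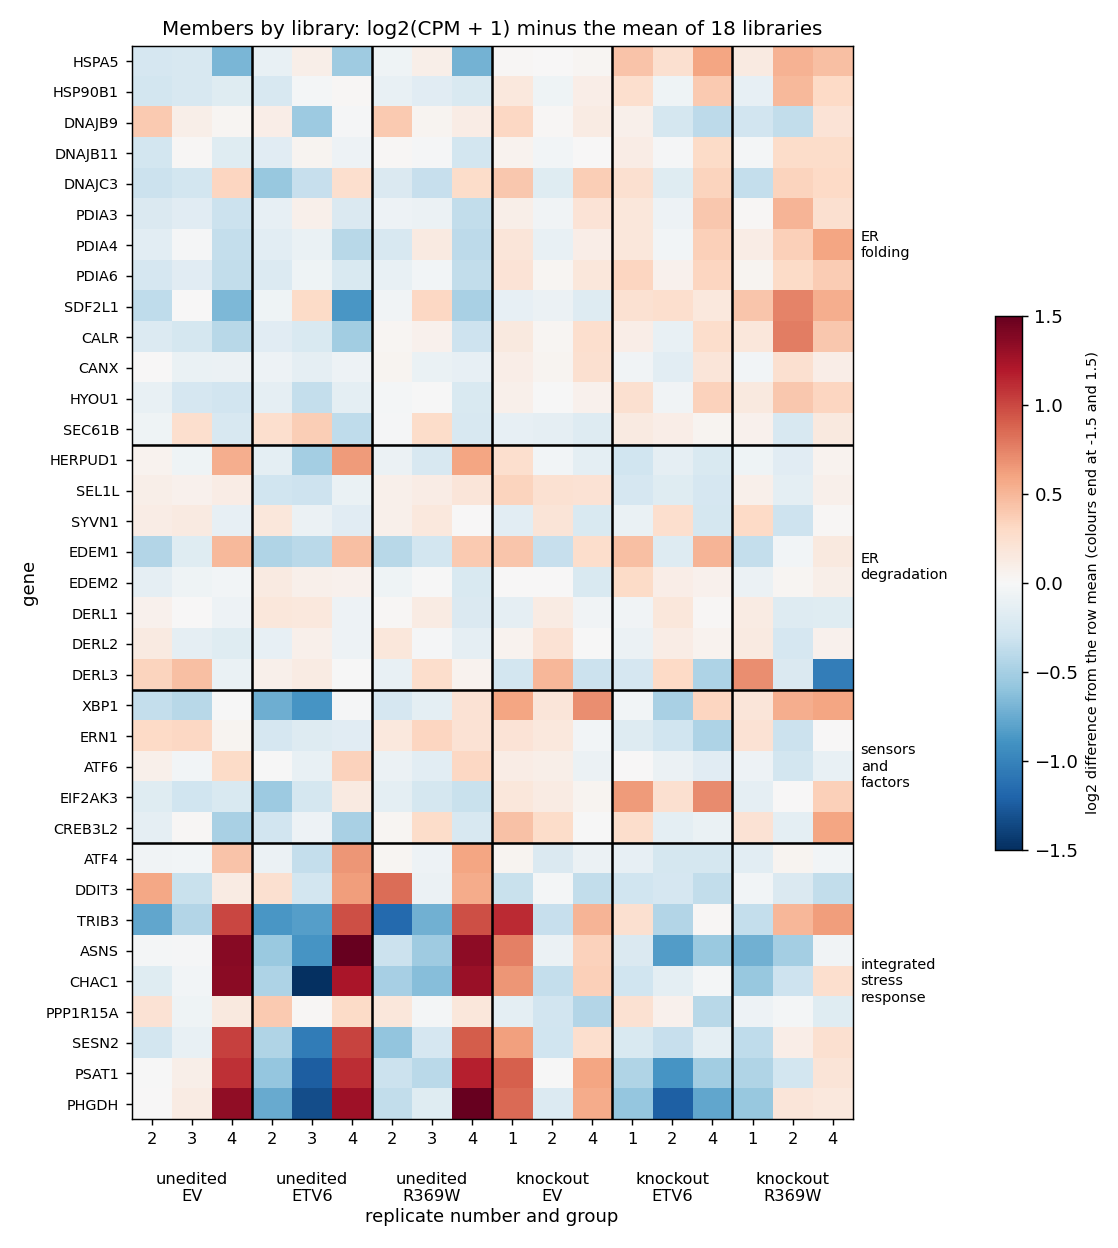
Each cell is 1 of the 35 genes (rows, by role) in 1 of 18 libraries (columns, by group and replicate number), coloured by log2(CPM + 1) minus the gene's mean over the 18 libraries, with colours ending at -1.5 and 1.5. The replicate 4 columns of the 3 unedited groups are high for TRIB3, ASNS, CHAC1, SESN2, PSAT1 and PHGDH, and the ER folding rows are mostly higher in the 9 knockout columns.

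Wild-type ETV6 was added to knockout cells. ETV6 counts with this vector were 1750 to 2380 CPM, well above the 66 to 145 of unedited EV cells, so the unedited level was not restored but exceeded. SEL1L, the adaptor that holds the HRD1 ubiquitin ligase complex of ER degradation together (GRCh38 chr14:81471549-81533861, minus strand), was at 117, 109 and 108 CPM with EV and at 78, 81.7 and 77.6 CPM with ETV6. All 3 ETV6 libraries were below all 3 EV libraries. SEL1L fell by 0.49 on the log2 scale (SE 0.08, 1.41-fold, adjusted p = 0.00267, edgeR quasi-likelihood test) and stayed past the threshold whichever of the 6 libraries was left out (adjusted p up to 0.0207) and without the 3 libraries of high erythroid sum (adjusted p = 0.0359). It was the 1 member of 35 past the threshold of 0.05, where 1.83% of all genes passed (224 of 12262, and 132 to 161 genes with 1 library left out). Under an unadjusted p of 0.05 were 5 members, against 12.4% of all genes. HRD1 itself (gene SYVN1) was at 47.3, 60.4 and 45 CPM with EV and at 49.3, 62.9 and 43.7 CPM with ETV6, with overlapping groups.

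In unedited cells SEL1L was at 98.4, 96.9 and 100 CPM with EV and at 75.4, 74.4 and 86.2 CPM with ETV6, again without overlap. The difference of -0.33 (SE 0.08) did not pass in edgeR without a block (adjusted p = 0.154). No member passed there, against 0.302% of all genes, and 2 members, SEL1L and ERN1, were under an unadjusted p of 0.05, against 4.58% of all genes. Without unedited ETV6 replicate 4, 9 members were, against 896 of 12419 genes. SEL1L and ERN1 were the 2 members lower without overlap, where 4.69% of all genes were, and EDEM2 the 1 member higher, where 4.15% were. DESeq2 called 1 member, SEL1L, and 91 of 12262 genes, and limma-voom called 0 members. Once the 9 unedited libraries were blocked by number, SEL1L fell by 0.33 (SE 0.06, adjusted p = 0.00143). That call was lost when the replicate 3 libraries were left out (adjusted p = 0.102).

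ERN1, the IRE1 sensor and RNase (chr17:64039142-64130819, minus strand), showed nearly the same difference in both genotypes. In unedited cells it was at 59.5, 60.4 and 49.8 CPM with EV and 40.4, 42.3 and 42.9 with ETV6. In knockout cells it was at 56.1, 54 and 47 CPM with EV and 42.2, 39.2 and 34.8 with ETV6. The ETV6 libraries lay below the EV libraries in both, and the log2 differences were -0.43 and -0.44 (SE 0.13 for each). Without a block neither passed (adjusted p = 0.446 and 0.12). With the block ERN1 fell by 0.43 in each (SE 0.08 and 0.07, adjusted p = 0.00155 and 0.001), and the unedited call was lost without the replicate 3 libraries (adjusted p = 0.128).

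XBP1, the factor whose messenger IRE1 splices (chr22:28794555-28800597, minus strand), was at 237, 178 and 254 CPM in knockout cells with EV and at 152, 111 and 195 with ETV6. The groups overlapped, but each ETV6 library was below the EV library of its number. The difference was -0.55 (SE 0.24, adjusted p = 0.362) without the block, and XBP1 fell by 0.57 with it (SE 0.06, adjusted p = 6.66e-05). In unedited cells it was at 122, 117 and 156 CPM with EV and 93.8, 84.2 and 154 with ETV6. XBP1 there fell by 0.28 with the block (SE 0.08, adjusted p = 0.0287), a call lost without replicate 2 and without replicate 3 (adjusted p up to 0.43).

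The largest differences were in serine and asparagine synthesis genes of the integrated stress response. PHGDH, the first enzyme of serine synthesis (chr1:119648411-119744226, plus strand), was at 346, 166 and 281 CPM in knockout EV cells and at 127, 81.4 and 111 with ETV6. PSAT1, the next enzyme of that pathway (chr9:78297143-78330093, plus strand), was at 330, 177 and 267 CPM with EV and 130, 95.4 and 123 with ETV6. ASNS, asparagine synthetase (chr7:97852118-97872542, minus strand), was at 234, 130 and 176 CPM with EV and 119, 76.7 and 94 with ETV6. None of the 3 overlapped between the groups, although the EV libraries themselves spread widely, with the lowest value of each in EV replicate 2. With SEL1L and ERN1 they made 5 members lower without overlap, where 11.7% of all genes were, and 5 members were higher (HSPA5, SDF2L1, SEC61B, EDEM2 and EIF2AK3), where 9.41% of all genes were. Without a block the differences of -1.31, -1.15 and -0.90 did not pass (adjusted p = 0.42, 0.404 and 0.606), nor did they without EV replicate 2 (-1.56, -1.36 and -1.08, adjusted p = 0.396, 0.387 and 0.578).

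Once the 6 knockout EV and ETV6 libraries were blocked by number, 14 of 35 members passed, 5 higher and 9 lower, where 24.7% of all genes passed, 10.8% higher and 13.9% lower. PHGDH fell by 1.28 (SE 0.07, adjusted p = 3.86e-07), PSAT1 by 1.12 (SE 0.08, adjusted p = 1.26e-06) and ASNS by 0.88 (SE 0.06, adjusted p = 1.37e-06). TRIB3, a pseudokinase that restrains ATF4, and SESN2, a leucine sensor, also fell, so that 5 of 9 integrated stress response genes fell. PPP1R15A, the phosphatase subunit that reverses eIF2 phosphorylation, rose by 0.26 (SE 0.07, adjusted p = 0.0207). ATF4 was at 523, 438 and 476 CPM with EV and 466, 423 and 422 with ETV6, and DDIT3 at 5.89, 7.54 and 5.75 against 6.04, 6.29 and 5.73, and neither passed.

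In the same fit 3 ER folding genes rose. HSPA5, the chaperone BiP (chr9:125234853-125241330, minus strand), was at 444, 440 and 446 CPM with EV and 587, 518 and 662 with ETV6, without overlap, and rose by 0.40 (SE 0.06, adjusted p = 6.28e-04). SDF2L1, a cofactor of BiP, rose by 0.38 (SE 0.12, adjusted p = 0.0416), from 8.81, 9.06 and 8.35 CPM to 11.5, 11.7 and 10.9. SEC61B, a subunit of the translocation channel, rose by 0.25 (SE 0.07, adjusted p = 0.0168). EIF2AK3, the PERK kinase, was at 15.4, 14.8 and 13.9 CPM with EV and 21.7, 16.2 and 22.8 with ETV6, and rose by 0.45 (SE 0.12, adjusted p = 0.0189). CREB3L2, a membrane-bound factor of the ATF6 type, fell by 0.23 (SE 0.07, adjusted p = 0.0264).

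Of these 14 calls, 8 held when the libraries of each number were left out in turn: HSPA5, ASNS, SEL1L, PHGDH, XBP1, TRIB3, PSAT1 and ERN1. SDF2L1 was lost without each of the numbers 1, 2 and 4, SESN2 without 1 and without 4, SEC61B and EIF2AK3 without 4, and PPP1R15A and CREB3L2 without 2. The number of members called was 13, 15 and 10 without replicates 1, 2 and 4, beside 2511 of 11882, 2908 of 11924 and 1427 of 11820 genes. The block fit rests on 3 pairs, and the myeloid marker sum was 526 to 597 CPM with EV and 194 to 208 with ETV6 in these libraries. The B-lymphoid sum given above was lower with ETV6 too. The part of these differences in the members' changes was not tested.

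In unedited cells the block gave 5 lower members and 0 higher, where 8.15% of all genes passed (5.49% lower and 2.66% higher). Besides SEL1L, ERN1 and XBP1 these were PHGDH, lower by 0.72 (SE 0.16, adjusted p = 0.00822), and PSAT1, lower by 0.60 (SE 0.15, adjusted p = 0.0163). PHGDH was at 191, 208 and 480 CPM with EV and at 113, 75.1 and 464 with ETV6 (replicates 2, 3 and 4), so replicate 4 was high under both vectors and nearly equal between them. None of the 5 calls held in all fits that left out 1 number. Without replicate 2, 3 members and 896 of 11774 genes passed, without replicate 3, 0 members and 171 of 11807 genes, and without replicate 4, 9 members and 940 of 11572 genes. At an unadjusted p under 0.05 the fit without replicate 3 held 6 members, beside 1278 of 11807 genes.

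**Figure D2:**
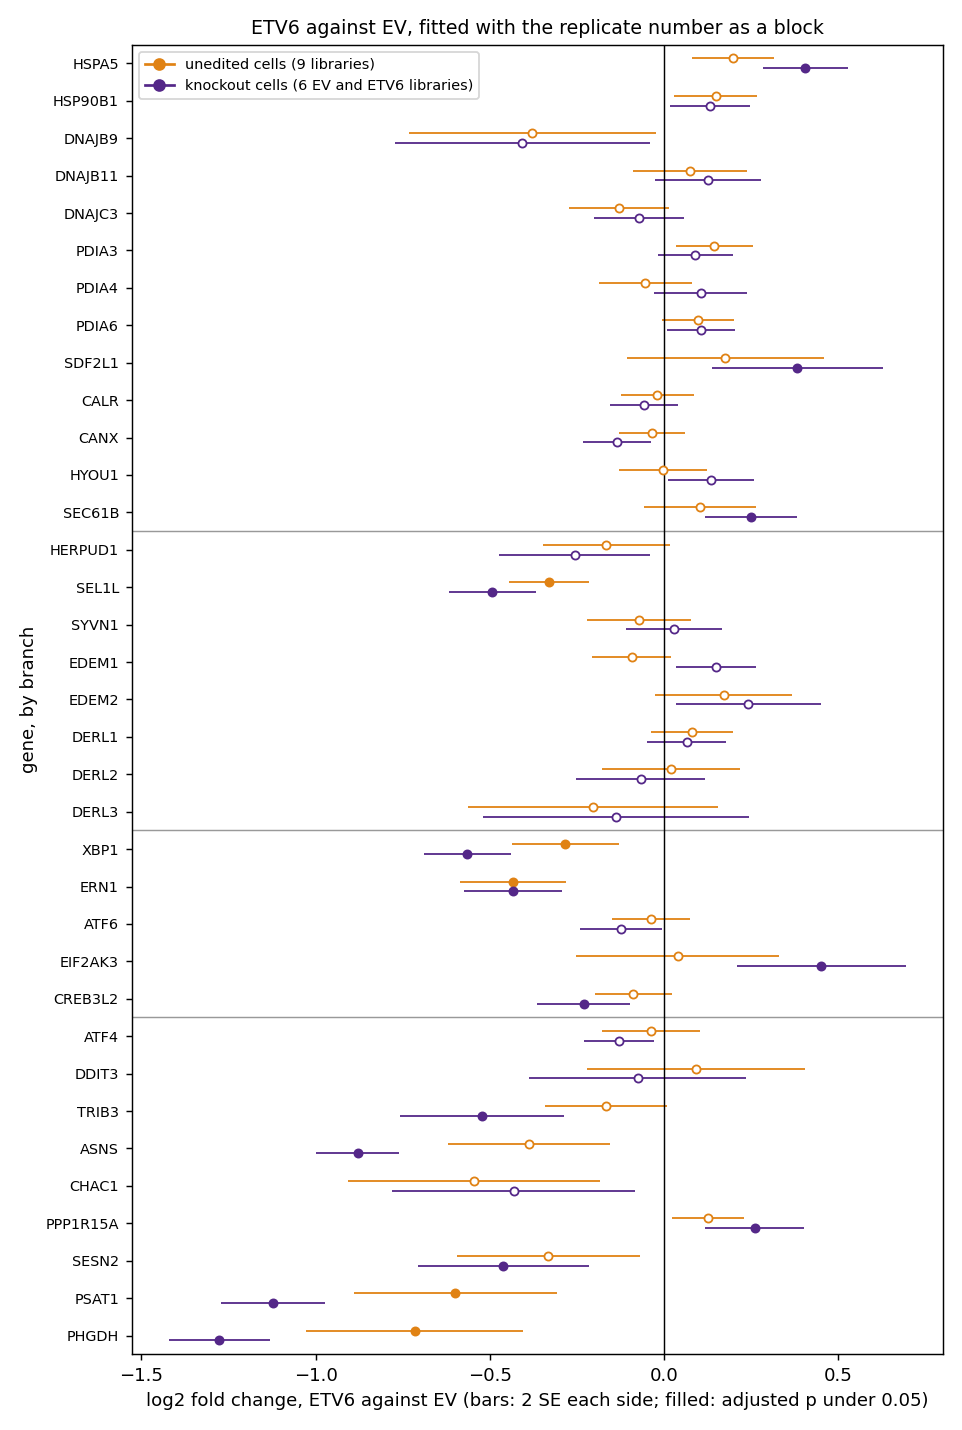
Log2 fold change of ETV6 against EV for each of the 35 genes (rows, by role), fitted with a block for replicate number, in unedited cells (orange, 9 libraries in the fit) and knockout cells (purple, 6 libraries); bars are 2 SE on each side and filled points have an adjusted p under 0.05. SEL1L, ERN1, XBP1, PSAT1 and PHGDH are filled and below 0 in both genotypes, and HSPA5 lies at 0.40 in knockout cells.

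Whether wild-type ETV6 acts differently in the 2 genotypes was tested by the interaction. No member passed in edgeR (0 also at an unadjusted p under 0.05, 0 in DESeq2 and 0 in limma-voom), where 0.0245% of all genes passed and 1.9% were under an unadjusted 0.05. The interaction was -0.17 (2 SE on each side, -0.39 to 0.05) for SEL1L, 0.00 (SE 0.18) for ERN1 and -0.88 (SE 0.88) for PHGDH, wide enough in PHGDH to hold changes of either sign.

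R369W and wild-type ETV6 were compared directly, with ETV6 counts of 2050 to 2830 and 2310 to 2620 CPM in unedited and of 1350 to 2090 and 1750 to 2380 CPM in knockout cells. In unedited cells SEL1L was at 97.6, 100 and 105 CPM with R369W, above all 3 ETV6 libraries. It was higher by 0.36 (SE 0.08, 1.28-fold, adjusted p = 0.035, edgeR), the 1 member of 35 to pass, where 1.2% of all genes passed (147 of 12262, and 90 to 131 genes with 1 library left out). Under an unadjusted p of 0.05 were 2 members, SEL1L and ERN1, against 8.99% of all genes. The call of SEL1L held without ETV6 replicate 4 and was lost without each of the other 5 libraries (adjusted p up to 0.198). ERN1 was at 53.9, 60.6 and 56.2 CPM with R369W, also above all 3 ETV6 libraries, and did not pass (0.44, SE 0.13, adjusted p = 0.15). These 2 members lay higher without overlap, where 7.32% of all genes did, and EDEM2, an ER degradation gene, lay lower, where 5.51% did.

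With the block, 6 members were higher with R369W and 0 lower, where 16.9% of all genes passed (10.2% higher and 6.67% lower). These were SEL1L (0.36, SE 0.06, adjusted p = 2.97e-04), XBP1 (0.48, SE 0.08, adjusted p = 2.97e-04), ERN1 (0.44, SE 0.08, adjusted p = 6.64e-04), CREB3L2 (0.31), PHGDH (0.54) and CALR (0.24). XBP1 was at 131, 141 and 182 CPM with R369W, each above the ETV6 library of its number at 93.8, 84.2 and 154. SEL1L, XBP1 and ERN1 held without each number in turn. PHGDH, CALR and CREB3L2 were lost without replicate 3, and the count was 7 (1 of them lower, HSP90B1), 3 and 9 without replicates 2, 3 and 4, beside 1931, 621 and 1547 genes.

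In knockout cells no member differed between R369W and ETV6 in edgeR (0 of 35, 4 at an unadjusted p under 0.05, 0 in DESeq2 and 0 in limma-voom), where 1.23% of all genes passed and 12.4% were under an unadjusted 0.05. SEL1L was at 97.7, 83.5 and 98.2 CPM with R369W, above the 3 ETV6 libraries, with a difference of 0.24 (SE 0.08, adjusted p = 0.208). SDF2L1, PSAT1 and PHGDH also lay higher without overlap, 4 members in all, against 8.78% of all genes, and 0 lay lower, against 7.57%. PHGDH was at 128, 217 and 213 CPM with R369W and at 81.4 to 127 with ETV6, and CALR at 1210, 1830 and 1420 CPM with R369W and 995 to 1290 with ETV6. The interaction of R369W against ETV6 with genotype passed for no member in edgeR (0 at an unadjusted p under 0.05, 0 in DESeq2 and 0 in limma-voom), where 0% of all genes passed and 1.01% were under an unadjusted 0.05.

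R369W against EV asks whether the variant alone moves these genes, with the EV libraries shared with the ETV6 comparisons. In unedited cells no member passed in edgeR (0 of 35, 0 at an unadjusted p under 0.05, 0 in DESeq2 and 0 in limma-voom), where 0.0245% of all genes passed and 2.02% were under an unadjusted 0.05. SEL1L lay within the EV range or just above it, at 97.6 to 105 CPM against 96.9 to 100. No member was without overlap in either direction, where 3.67% of all genes were higher and 3.29% lower. With the block, CALR (0.22, SE 0.05, adjusted p = 0.035) and CREB3L2 (0.23, SE 0.05, adjusted p = 0.0399) were higher, where 2.14% of all genes passed. CALR was at 931, 892 and 808 CPM with EV and 1100, 1120 and 865 with R369W. CALR was lost without replicate 2 and without replicate 3, and CREB3L2 without any 1 of the 3 numbers.

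In knockout cells no member passed between R369W and EV in edgeR (0 of 35, 4 at an unadjusted p under 0.05, 1 in DESeq2, SEL1L, beside 195 genes, and 0 in limma-voom), where 0.0571% of all genes passed and 13.8% were under an unadjusted 0.05. The SEL1L libraries did not overlap, at 108 to 117 CPM with EV and 83.5 to 98.2 with R369W, and the difference was -0.26 (SE 0.08, adjusted p = 0.238). HSPA5, SDF2L1 and HYOU1, an ER chaperone of the HSP110 type, lay above EV without overlap, 3 members against 8.93% of all genes, and SEL1L was the 1 member lower, against 9.75%. SDF2L1 was at 13.2, 16.9 and 14.5 CPM with R369W and 8.81, 9.06 and 8.35 with EV, a difference of 0.77 (SE 0.28, adjusted p = 0.286). The interaction of R369W against EV with genotype passed for no member in edgeR (0 of 35, 1 at an unadjusted p under 0.05, 0 in DESeq2 and 0 in limma-voom), where 0.0408% of all genes passed and 4.24% were under an unadjusted 0.05. That 1 was SEL1L, at -0.29 (2 SE on each side, -0.52 to -0.07, adjusted p = 1).

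**Figure D3:**
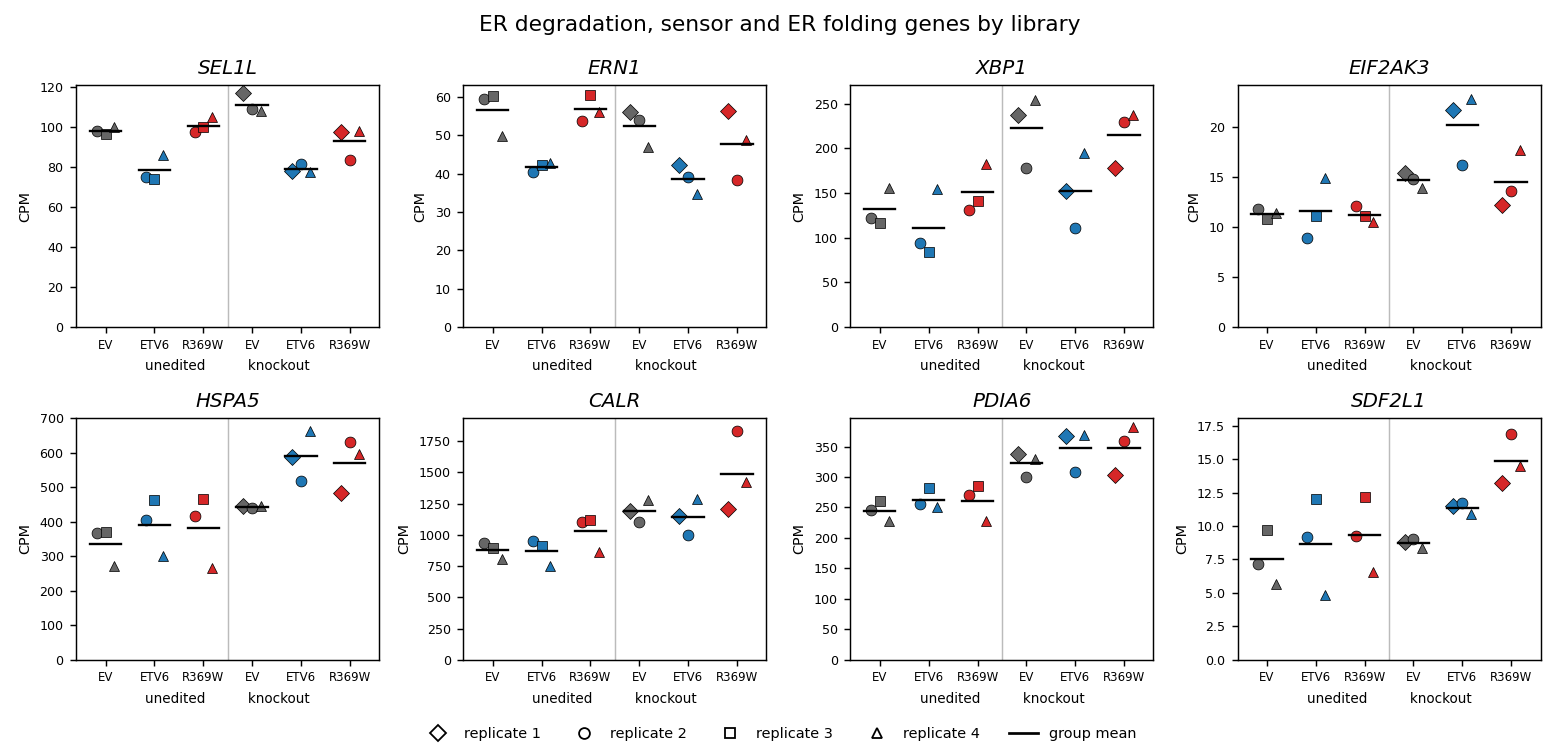
CPM of 8 ER degradation, sensor and ER folding genes in each of the 18 libraries (points, shape by replicate number), by genotype and vector, with the group mean as a line and axes starting at 0. The group means of SEL1L and ERN1 are lowest with ETV6 in both genotypes, with SEL1L at 74.4 to 86.2 CPM in unedited and 77.6 to 81.7 in knockout cells.

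Knockout and unedited cells were compared under each vector. Most ER folding genes lay higher in knockout cells, by amounts of which 1 passed. With EV, 11 of 13 ER folding genes were above 0 with a median log2 difference of 0.26, and with ETV6 and with R369W also 11 of 13, with medians of 0.33 and 0.41. Over all genes 49.5%, 49% and 50.3% were above 0, with medians of 0.00, -0.01 and 0.00. The 9 integrated stress response genes had medians of -0.21, -0.36 and -0.50, and the 8 ER degradation genes medians of -0.01, 0.00 and -0.06. Of the 9 integrated stress response genes, 7 were high in the unedited replicate 4 libraries. Of the 13 ER folding genes, 6 were low in those libraries without overlap and 1 was high. The part of these libraries in the differences of either branch was not tested. With EV, ASNS was at 135, 137 and 358 CPM in unedited cells (replicates 2, 3 and 4) and 234, 130 and 176 in knockout cells. PPP1R15A, at 165, 136 and 157 against 128, 116 and 104, was lower, and its unedited replicate 4 library did not stand apart. Taken alone, the medians do not show a higher or a lower response in knockout cells.

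With EV, no member passed in edgeR (0 of 35, 10 at an unadjusted p under 0.05, 2 in DESeq2, PDIA6 and XBP1, beside 893 genes, and 0 in limma-voom), where 4.33% of all genes passed and 17.7% were under an unadjusted 0.05. With 1 library left out, 246 to 577 genes passed against 531 with all, and PDIA6 passed without knockout EV replicate 2. Without the 3 knockout libraries of high erythroid sum, HSP90B1, PDIA6 and XBP1 passed, 3 members beside 785 of 12374 genes. Of 35 members, 10 lay higher in knockout cells without overlap, where 12.6% of all genes did. XBP1 showed the largest of these, with 122, 117 and 156 CPM in unedited and 237, 178 and 254 in knockout cells (0.76, SE 0.24, adjusted p = 0.0986). PDIA6, a protein disulfide isomerase, was at 246, 261 and 227 CPM in unedited and 338, 300 and 330 in knockout cells (0.40, SE 0.11, adjusted p = 0.0521). The others were HSPA5, HSP90B1, PDIA3, CALR, CANX, HYOU1, SEL1L and EIF2AK3. PPP1R15A alone lay lower without overlap, at 136 to 165 CPM in unedited and 104 to 128 in knockout cells, where 9.86% of all genes did.

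With ETV6, EIF2AK3 (chr2:88556741-88627576, minus strand) was higher in knockout cells, at 21.7, 16.2 and 22.8 CPM against 8.93, 11.1 and 14.9 (0.80, SE 0.19, 1.74-fold, adjusted p = 0.0374, edgeR). It was the 1 member of 35 past the threshold, where 2.53% of all genes passed (310 of 12262, and 116 to 310 genes with 1 library left out). DESeq2 called 4 members beside 741 genes, and limma-voom 1 beside 161 genes. Under an unadjusted p of 0.05 were 6 members, against 17.7% of all genes. The call was lost without unedited ETV6 replicate 2 or 3 or knockout ETV6 replicate 1 or 4 (adjusted p up to 0.148), and without both libraries named out of order. Without knockout ETV6 replicate 2, 3 members passed (PDIA6, HYOU1 and EIF2AK3) beside 310 of 12418 genes. Without the 3 libraries of high erythroid sum these and HSP90B1 passed, 4 members beside 581 of 12374 genes. HSPA5 was at 405, 464 and 301 CPM in unedited and 587, 518 and 662 in knockout cells, without overlap (0.59, SE 0.20, adjusted p = 0.119). In all, 6 members lay higher without overlap, where 11.5% of all genes did, and 0 lower, where 11.1% did.

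With R369W, PDIA6 (chr2:10783391-10837977, minus strand) was higher in knockout cells, at 303, 359 and 382 CPM against 271, 285 and 227 (0.42, SE 0.11, 1.33-fold, adjusted p = 0.0435, edgeR). It was the 1 member of 35 past the threshold, where 4.18% of all genes passed (513 of 12262, and 138 to 880 genes with 1 library left out). DESeq2 called 6 members beside 1010 genes, and limma-voom 0 beside 416 genes. Under an unadjusted p of 0.05 were 10 members, against 22% of all genes. The call held without knockout R369W replicate 1 and was lost without each of the other 5 libraries (adjusted p up to 0.155), and without both libraries named out of order. Without knockout R369W replicate 1, 6 members passed, all higher (HSP90B1, PDIA3, PDIA4, PDIA6, CALR and HYOU1), beside 880 of 12413 genes. The same 6 passed without the 3 libraries of high erythroid sum, beside 1032 of 12374 genes. SDF2L1 was at 9.27, 12.2 and 6.59 CPM in unedited and 13.2, 16.9 and 14.5 in knockout cells, without overlap (0.67, SE 0.28, adjusted p = 0.184). PDIA4, another disulfide isomerase, overlapped at 65.9 to 95.2 CPM in unedited and 94 to 131 in knockout cells (0.52, SE 0.16, adjusted p = 0.0797). DDIT3 was at 14.6, 7.2 and 11.8 CPM in unedited and 7.47, 6.51 and 5.71 in knockout cells, with overlap (-0.77, SE 0.30, adjusted p = 0.151). In all, 7 members lay higher without overlap, where 11.6% of all genes did, and 0 lower, where 10.9% did. The erythroid sums given above differed between the genotypes under each vector, and their part in these differences was not tested. The edit and any other difference between the cells labelled WT and ETV6-KO cannot be told apart.

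**Figure D4:**
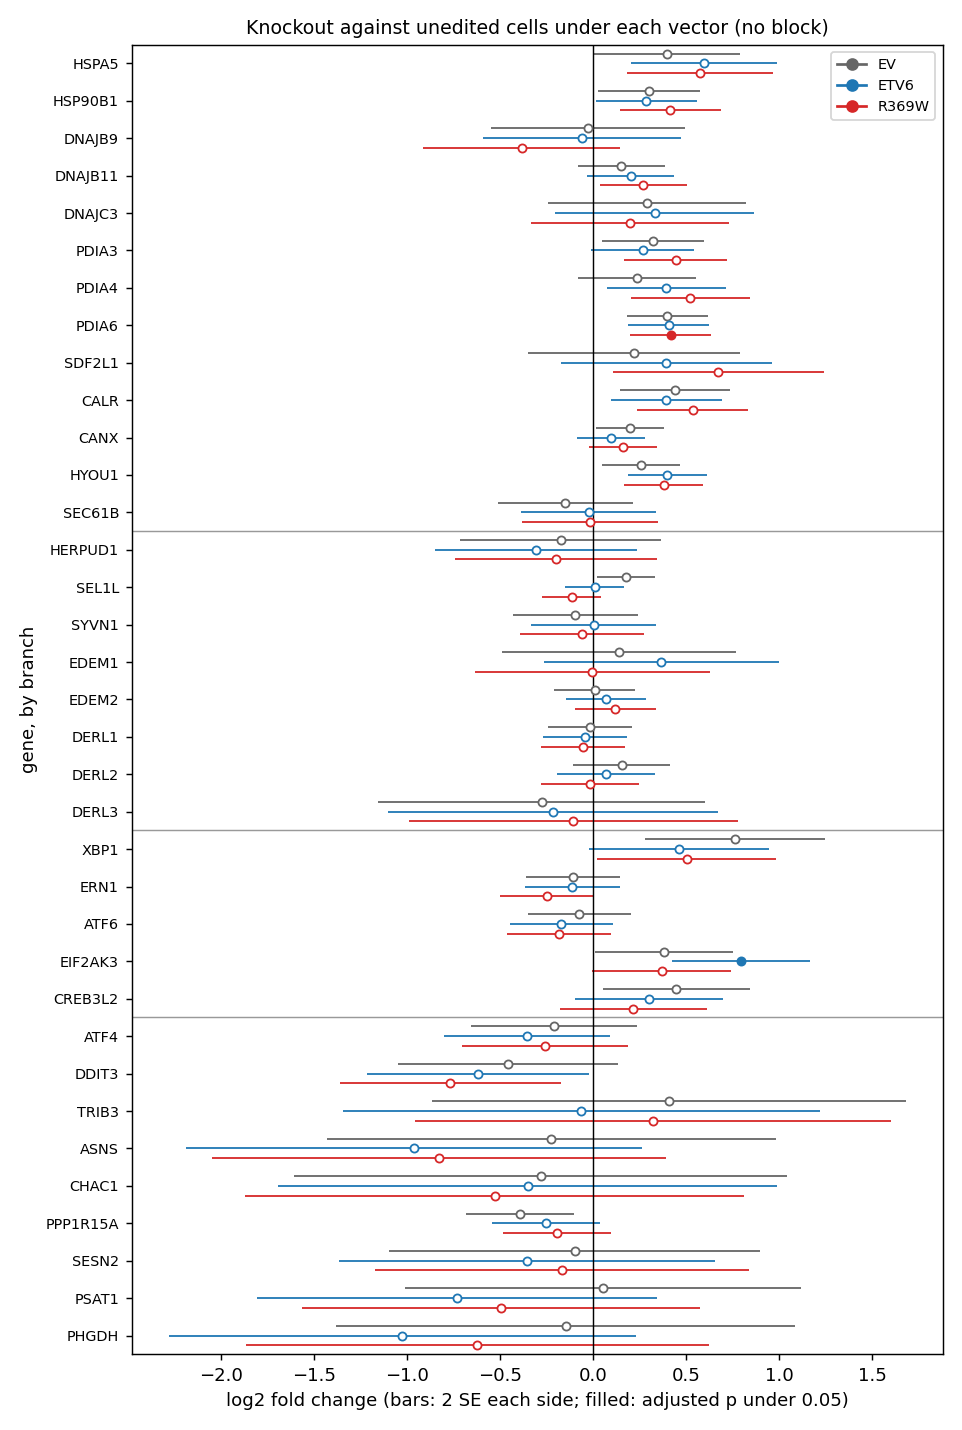
Log2 fold change of knockout against unedited cells for the 35 genes (rows, by role) with EV (grey), ETV6 (blue) and R369W (red), without a block; bars are 2 SE on each side and filled points have an adjusted p under 0.05. The filled points are EIF2AK3 with ETV6 at 0.80 and PDIA6 with R369W at 0.42, and 11 of 13 ER folding genes lie above 0 under each vector.

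Within unedited cells many members differed by replicate number. An F test of the number in the 9 unedited libraries, chosen after the values were seen, passed for 24 of 35 members, where 58.1% of all genes passed, and for all 9 integrated stress response genes. It shows that same-numbered libraries resemble each other and compares no condition of the study. TRIB3 was at 25.4, 32.4 and 89.4 CPM with EV, 23.7, 24.6 and 87.5 with ETV6 and 19.1, 26.4 and 87.3 with R369W (replicates 2, 3 and 4). ASNS was at 135, 137 and 358 CPM with EV, 93.7, 74.4 and 397 with ETV6 and 110, 95.6 and 352 with R369W. CHAC1, which degrades glutathione, was at 16.2, 18 and 48.7 CPM with EV, 13.2, 5.36 and 44.6 with ETV6 and 12.8, 11.5 and 46.9 with R369W.

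In all 3 genes every replicate 4 library was above every library of replicates 2 and 3. The mean of replicate 4 over the mean of the others was 3.48 for TRIB3, 3.43 for ASNS, 3.65 for CHAC1, 3.29 for PHGDH, 2.79 for PSAT1, 2.71 for SESN2 and 1.58 for ATF4, and none of these 7 overlapped, where 18% of all genes lay above in this way. DDIT3 and PPP1R15A overlapped. Of ER folding genes, 6 of 13 lay below in replicate 4 without overlap (HSPA5, PDIA3, PDIA4, SDF2L1, CALR and SEC61B), where 16.1% of all genes did, and DNAJC3, an inhibitor of PERK, lay above. HSPA5 averaged 397 ± 25.1, 433 ± 54.4 and 280 ± 18.5 CPM (SD, n = 3) in replicates 2, 3 and 4. The 3 libraries of a number are 1 of each vector, so these SDs include differences between vectors. HERPUD1, which recruits the degradation complex, averaged 28.7 ± 2.09, 24.9 ± 3.86 and 45.8 ± 1.53, and EDEM1, another ER degradation gene, 92.3 ± 0.904, 102 ± 7.78 and 171 ± 5.84. ATF6 averaged 95.6 ± 5.42, 89.4 ± 3.86 and 120 ± 2.16, and XBP1 116 ± 19.4, 114 ± 28.6 and 164 ± 15.6.

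**Figure D5:**
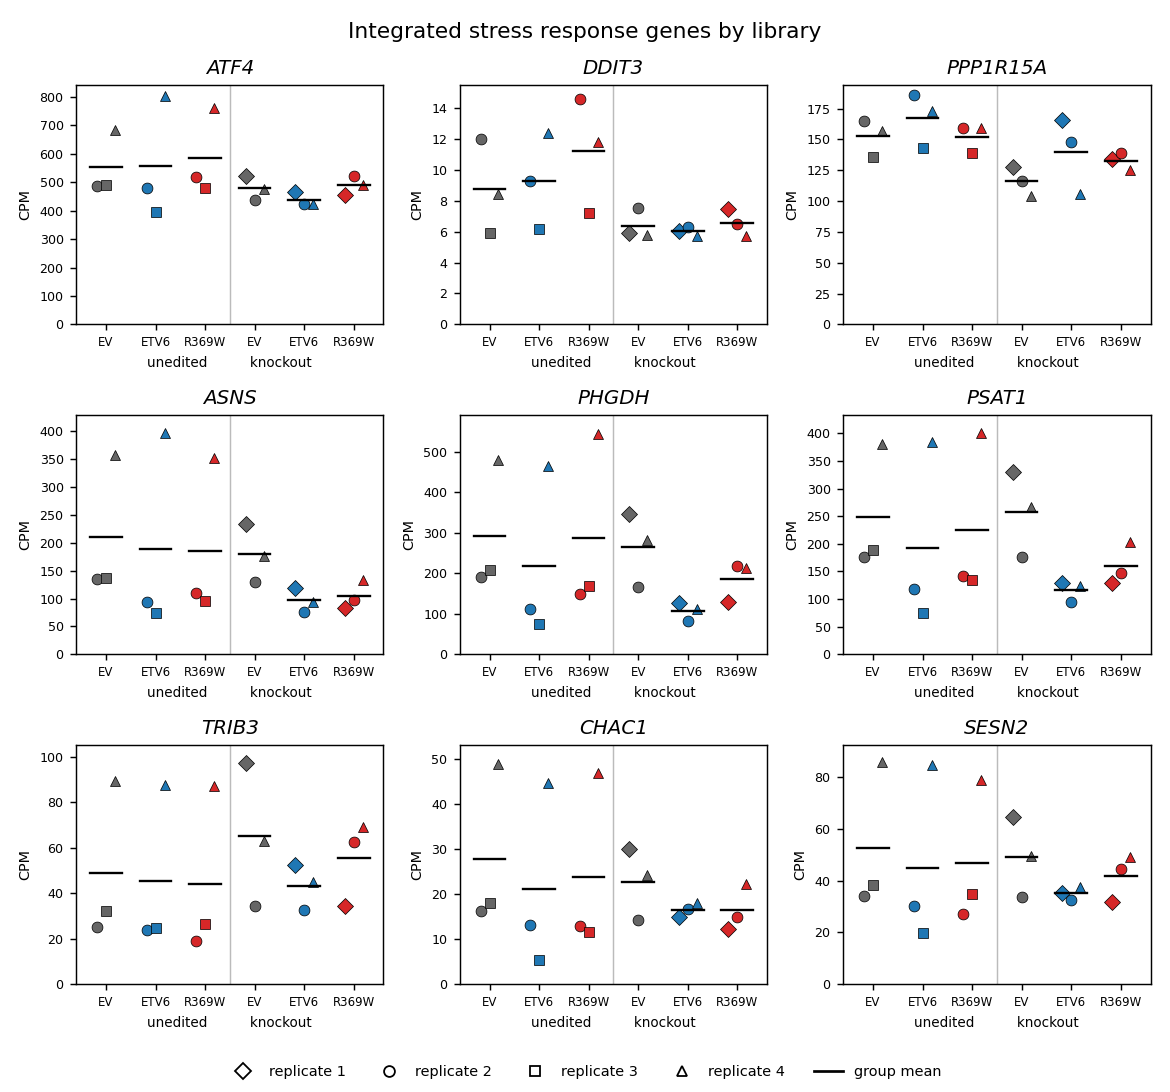
CPM of the 9 integrated stress response genes in each of the 18 libraries (points, shape by replicate number), by genotype and vector, with the group mean as a line and axes starting at 0. The unedited replicate 4 libraries (triangles) stand at 352 to 397 CPM for ASNS, while the other unedited libraries lie at 74.4 to 137, and in knockout cells PHGDH and PSAT1 are lowest with ETV6.

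Other genes of these pathways were read from lists that overlap no member. Of 39 other ER folding and degradation genes tested, PDIA5, a disulfide isomerase, was higher in knockout cells under all 3 vectors, with log2 differences of 0.70, 0.49 and 0.56 (adjusted p = 0.00406, 0.048 and 0.023) and levels of 26.9 to 30.1 CPM in unedited and 40 to 48.9 in knockout EV cells. CALU, an ER calcium-binding protein, was higher with EV (0.64, adjusted p = 0.0177). CRELD2, an ER stress protein, and PPIB, a proline isomerase, were higher with R369W (1.10 and 0.43, adjusted p = 0.0307 and 0.0246). UGGT1, the glucosyltransferase that returns unfolded glycoproteins to calnexin, fell in knockout cells with ETV6 against EV (-0.38, SE 0.09, adjusted p = 0.0347) and was higher with R369W than with ETV6 (0.41, SE 0.09, adjusted p = 0.0272). It stood at 425, 455 and 384 CPM with EV, 339, 333 and 299 with ETV6 and 452, 431 and 407 with R369W.

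Of 33 other integrated stress response genes tested, 1 passed without a block, GDF15, a stress cytokine, lower in knockout cells with R369W at 0.154, 0.23 and 0.371 CPM against 2.46, 1.58 and 2.25 (-3.01, SE 0.78, adjusted p = 0.0425). These knockout levels are near the floor. GDF15 did not pass with EV, at 0.73, 0.228 and 0.306 CPM in knockout and 3.02, 1.44 and 2.34 in unedited cells. With ETV6 it did not pass either, at 0, 0.0767 and 0.372 CPM in knockout and 1.15, 0.151 and 0.83 in unedited cells. With the block, 22 of 31 such genes were lower with ETV6 than with EV in knockout cells and 0 higher, with a median of -0.36. Of all genes 13.9% were lower there and 10.8% higher. In unedited cells 14 of 33 were lower and 0 higher, with a median of -0.22, where 5.49% of all genes were lower and 2.66% higher. Of the other ER folding and degradation genes, 5 of 39 were higher and 9 lower in knockout cells, and 2 higher and 2 lower in unedited cells. These lists were not counted in the fits without 1 number. The unedited fit called 956 of 11733 genes, and 171 of 11807 without replicate 3. By replicate number in unedited cells, 31 of 33 other integrated stress response genes passed and 24 lay above in replicate 4 without overlap.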

How the data were processed

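Per the labels' protocols, RNA came from a TRIzol preparation and stranded TruSeq mRNA libraries were sequenced. The authors deposited raw counts, whole reads per gene, in 1 table. Per the submitters' processing notes, HISAT2, SAMtools and HTSeq were used with GRCh38. The sources used here give neither annotation nor strand setting, so overlapping antisense reads cannot be judged. Reads given to no gene, 34.4% to 41.6% of those listed, stayed out of library sizes. Of 20833 identifiers, 20801 matched a symbol. Positions and exon lengths came from GENCODE.

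edgeR 4.0.16 in R 4.3.3 kept genes by filterByExpr, scaled them by TMM and fitted 1 mean per group over 18 libraries. The quasi-likelihood F test was two-sided, with Benjamini-Hochberg adjustment over the whole table and 0.05 as the threshold. SE was taken as the size of the log2 fold change over the root of F. The 9 comparisons and 3 interactions were counted over the members and over all genes. An exact permutation test of 3 against 3 cannot go below p = 0.1, so none was used. DESeq2 1.42.0, limma 3.58.1 (voom), other size factors, no filter, left-out libraries, the 2 groups alone and replicate blocks were alternatives; blocks without 1 number and fits without 3 libraries of high erythroid sum were added after the data were seen. The code was tested on simulated data. PCR reads are not independent molecules.

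The members and lists were chosen with earlier results of these data known. Values per library are given for members past the threshold, for the best known gene of each branch, and for the 6 largest block results, and of other pathway genes up to 4 per list past the threshold are named; the rest were named as illustrations after their values were seen. Numbers were taken to pair libraries where at least 3 same-numbered pairs existed and each correlated above 0.1 in its deviations; the genotypes share only 2 numbers, so none pair them.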

Additional observations from a re-analysis of the deposited data

How the results depend on the processing

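Each setting is set against edgeR without a block. DESeq2 called 1 member in unedited ETV6 against EV, 2 in knockout against unedited with EV, 4 with ETV6 and 6 with R369W, and 1 in knockout R369W against EV, where 5 members had no adjusted p. These stood beside 91, 893, 741, 1010 and 195 of 12262 genes. limma-voom called 0 with R369W between the genotypes. Without the count filter, and in a fit of the 2 groups alone, 0 members passed in unedited R369W against ETV6 and between the genotypes with ETV6 and with R369W. Without both libraries whose names break the order of the others (knockout ETV6 replicate 1 and R369W replicate 4), 0 passed between the genotypes with ETV6 and with R369W. Leaving out 1 library gave 0 to 1 in unedited R369W against ETV6 and between the genotypes with EV, 0 to 3 with ETV6 and 0 to 6 with R369W. At an unadjusted p under 0.05, leaving out 1 library gave 2 to 9 members in unedited ETV6 against EV, beside 404 to 896 genes. Unedited R369W against ETV6 gave 2 to 6, beside 835 to 1354 genes. Unedited R369W against EV gave 0 to 2, beside 168 to 403 genes. The same 3 comparisons of knockout cells gave 2 to 6, 2 to 4 and 1 to 8 members. Beside these stood 1171 to 1442, 1028 to 1751 and 694 to 2024 genes. Between the genotypes with EV, ETV6 and R369W, 4 to 8, 4 to 13 and 7 to 14 members passed. Beside these stood 1518 to 2443, 1496 to 2333 and 1582 to 3196 genes. These fits tested 12390 to 12427 genes. Without the 3 knockout libraries of high erythroid sum, 3, 4 and 6 members passed between the genotypes with EV, ETV6 and R369W, and no other count of members past the adjusted threshold changed.

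The replicate block gave 5, 2 and 6 members in unedited ETV6 against EV, R369W against EV and R369W against ETV6. Without replicates 2, 3 and 4 it gave 3, 0 and 9, then 0, 0 and 3, then 7, 3 and 9. In knockout ETV6 against EV it gave 0 over 9 libraries and 14 in the 6 paired ones, or 13, 15 and 10 without replicates 1, 2 and 4. Between the genotypes only numbers 2 and 4 are shared, and their same-numbered deviations correlated at 0.466 and 0.494 with EV, 0.428 and 0.478 with ETV6 and -0.32 and 0.211 with R369W. Over 18 libraries, the block by number gave 4, 6 and 8 members there, beside 979, 1002 and 1591 of 12262 genes. DDIT3 and PPP1R15A were lower under all 3 vectors. Higher were PDIA6 and XBP1 with EV, HSPA5, SDF2L1, PDIA6 and EIF2AK3 with ETV6, and HSPA5, SDF2L1, PDIA6, PDIA3, PDIA4 and CALR with R369W. The medians of the 9 integrated stress response genes with this block were -0.44, -0.46 and -0.67 with EV, ETV6 and R369W. Those of the 13 ER folding genes were 0.34, 0.36 and 0.45. In the 3 interactions the block gave 0 members. In knockout R369W against EV and against ETV6 it gave 0 members too, beside 0 and 75 of 12031 genes. These counts of 0, those of the interactions and the 0 over 9 libraries come from fits that include the knockout R369W libraries. The numbers do not pair those libraries, so these counts cannot show that no member changed. ASNS in unedited R369W against ETV6 turned to 0.29 with the block and without replicate 4 (adjusted p = 0.0189). Of the fold changes of named members under all settings, 2906 kept their direction and side of the threshold, 93 passed only in the alternative and 24 were lost. The cause of these changes was not tested. Other size factors moved medians by less than 0.01 log2 and changed no count of members past the adjusted threshold. Having 3 libraries a group and reads of 12577816 or more per library limit the precision.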
